A study of Mus musculus with 9 samples.

Results

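The genes described here are 10 genes whose products mark or equip the macrophage at the centre of an erythroblastic island: Adgre1, Vcam1, Mrc1, Mertk, Axl, C1qa, C1qb, C1qc, Lyz2 and Cd14. They were taken by name, with earlier results of these data known, and all array probes whose RefSeq accession maps to one of these symbols were taken. This gave 12 of 26413 named probes and 10 of 20018 named genes. Adgre1 and Vcam1 had 2 probes each and the other genes 1 each, and all 10 genes were among the 14506 genes tested.

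The RNA came from erythroblasts of a gate called subset II, sorted from mouse bone marrow, and was amplified, labelled with Cy3 and read on 1-colour Agilent arrays. The mice were wild-type C57BL/6J and labelled female, and the labels name no further allele or agent for any group. One group received normal diet, and the others received low iron diet from weaning for 3 weeks or for 7 weeks, with 3 biological replicates in each of the 3 groups. The study concerns iron deficiency anaemia and gene expression in erythroblasts; whether a replicate was 1 mouse or a pool, and the age of the mice on normal diet, are not given in the sources used here.

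In bone marrow, erythroid cells mature in clusters around a resident macrophage. This macrophage holds erythroblasts through adhesion molecules, supplies iron and growth signals, and engulfs the nuclei that erythroblasts expel. A sorted erythroblast sample can hold RNA of such macrophages where they, or fragments of their membrane, stay attached to the cells. Lysozyme and CD14 are shared more widely among myeloid cells, monocytes and neutrophils included.

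Erythroblast markers were checked first, which does not show that other cells were absent. All 15 tested erythroblast markers were well above background on all 9 arrays, with a mean log2 level of 6.50 to 7.41 across the arrays. Levels here are log2 processed signals minus the 75th percentile of the same array, so 0 is a bright probe of that array. On normal diet, single erythroblast markers averaged 4.16 to 8.66. Single markers of the neutrophil list described below averaged -2.74 to 7.91, so the brightest of them lay within the erythroblast range. All 10 macrophage genes were also measurable: each passed the scanner's background criterion (well above background) on the 6 normal diet and 3 week arrays, and on the 7 week arrays too, except Mertk, which passed on 2 of 3. The highest mean signal over the 9 arrays among their probes was 1.53% of the saturation value. The scanner flagged no spot outside the controls as saturated on any array, so no value was limited at the top of the scale.

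Some arrays stood apart. Normal diet replicates 1 and 2 went against their female label: the X inactivation transcript Xist was at -6.73 and -4.82 there against -0.41 in replicate 3, and the Y-linked Eif2s3y was at 5.12 and 4.82 against -3.77. On the 6 low iron arrays Eif2s3y lay between -6.61 and -3.98. Each comparison with normal diet is therefore given also against replicate 3 alone, where the spread of that single array is assumed to be that of the other groups. Since the arrays of a group shared a slide and scan that held no other group, diet cannot be told apart from slide. The 7 week arrays were dimmer, with a 75th percentile of 791.7 to 1087 units against 1499 to 1837 in the others, and 45.2% to 53.6% of probes well above background against 56.8% to 70.8%. On the same scale the E1A spike-in spots averaged 4.97 ± 0.47 there (SD over 3 arrays), against 1.08 ± 0.62 on normal diet and 1.34 ± 0.24 at 3 weeks. The 7 week replicates correlated at 0.909 to 0.958 across probes, against 0.977 to 0.987 within the other groups. The part of this in the 7 week differences below was not tested. Tests are from limma, fitted over all 14506 genes with Benjamini-Hochberg adjustment, and a gene is called at an adjusted p under 0.05. P-values measure the spread between these samples. Both low iron groups were compared with the same 3 normal diet arrays, so these comparisons share their controls.

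Promoter windows are shown for 4 of the genes: for the neighbouring complement genes C1qb and C1qc, whose signals differed in pattern, for Lyz2, which had the largest difference, and for Mrc1, which had the largest fall at 7 weeks. RefSeq windows on GRCm38.p6 were matched for 6 of the 10 genes. Each sequence is the 250 bases before the start that the RefSeq window table uses, which for C1qc lies 22 bases inside the outer end of the annotated gene, 5′ to 3′ on the gene's strand: C1qb at chr4:136886201-136886450 (minus strand), C1qc at chr4:136892915-136893164 (minus), Lyz2 at chr10:117282273-117282522 (minus) and Mrc1 at chr2:14229164-14229413 (plus). Capitals mark GAGGAA, the core of the binding motif of the myeloid factor PU.1, and TGCTGA, the core of the motif of the MAF factors, searched on both strands; on the opposite strand they read TTCCTC and TCAGCA.
C1qb: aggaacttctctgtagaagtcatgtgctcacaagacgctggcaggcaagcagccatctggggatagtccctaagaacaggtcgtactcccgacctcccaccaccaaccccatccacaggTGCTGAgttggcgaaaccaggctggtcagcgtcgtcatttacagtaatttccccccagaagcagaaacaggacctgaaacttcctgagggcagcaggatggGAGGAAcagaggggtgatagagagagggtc
C1qc: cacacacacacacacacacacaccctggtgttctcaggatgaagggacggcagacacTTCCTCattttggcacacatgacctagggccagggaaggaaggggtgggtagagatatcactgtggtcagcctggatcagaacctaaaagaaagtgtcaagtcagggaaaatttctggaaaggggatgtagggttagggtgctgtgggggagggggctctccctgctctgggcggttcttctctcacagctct
Lyz2: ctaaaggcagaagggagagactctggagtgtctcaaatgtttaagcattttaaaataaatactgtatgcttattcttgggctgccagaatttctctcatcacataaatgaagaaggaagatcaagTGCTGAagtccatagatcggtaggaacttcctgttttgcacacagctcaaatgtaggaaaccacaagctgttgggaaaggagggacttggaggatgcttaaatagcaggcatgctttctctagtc
Mrc1: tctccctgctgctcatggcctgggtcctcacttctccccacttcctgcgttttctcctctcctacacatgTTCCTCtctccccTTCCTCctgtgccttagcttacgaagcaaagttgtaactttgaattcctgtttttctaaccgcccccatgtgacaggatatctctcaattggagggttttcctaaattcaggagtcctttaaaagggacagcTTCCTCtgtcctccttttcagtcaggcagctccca
GAGGAA lay 30 bases before the start of C1qb, 193 bases before that of C1qc, and 180, 167 and 35 bases before that of Mrc1; these letters were not in the Lyz2 window. TGCTGA lay 131 bases before the start of C1qb and 125 bases before that of Lyz2. Among all 32851 windows of this length, 23.3% held GAGGAA and 16.1% held TGCTGA, so a match is a description only.

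After 3 weeks of low iron diet, Lyz2, Cd14, Axl and C1qa rose against normal diet and none of the 10 genes fell; at an unadjusted p under 0.05 there were 5 higher and 0 lower. Of all genes tested, 11.4% were called in this comparison, 3.52% as higher and 7.88% as lower. The groups did not overlap for 6 of the 10 genes, all higher at 3 weeks, where 49.5% of all genes did not overlap, 18% higher and 31.6% lower. The median difference of the 10 genes was 0.95 (log2), beside -0.17 over all genes. Marker lists described below had medians of 1.07 (T and NK cell), 0.92 (dendritic cell), 0.90 (neutrophil) and 0.69 (B lineage). Medians were 0.48 for megakaryocyte, 0.27 for stroma and 0.18 for other macrophage markers. They were -0.22 for erythroblast and -0.77 for mast cell, basophil and eosinophil markers. Against normal diet replicate 3 alone, none of the 10 was called, 2 had an unadjusted p under 0.05, and no gene on the array was called. In these bulk samples, fewer cells of a type and less RNA per cell cannot be told apart.

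After 7 weeks, Adgre1, Vcam1, Mrc1, Mertk and C1qa fell against normal diet and none of the 10 rose, also at an unadjusted p under 0.05. Of all genes tested, 29.5% were called, 18.7% as lower. The groups did not overlap for these same 5 genes, where 47.4% of all genes did not overlap, 29.4% on the lower side. The median difference of the 10 genes was -0.71, beside -0.26 over all genes. Against replicate 3 alone, none of the 10 was called and 4 had an unadjusted p under 0.05, with 1 gene called on the whole array.

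Between the low iron groups, 8 of the 10 genes were lower at 7 than at 3 weeks, all but C1qb and C1qc. Of all genes tested, 37.2% were called, 19.6% as lower. The groups did not overlap for the same 8 genes, where 48.4% of all genes did not overlap, 25.2% on the lower side. The median difference of the 10 genes was -2.19, beside -0.13 over all genes. This comparison uses no normal diet array except in the estimate of the spread.

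**Figure D1:**
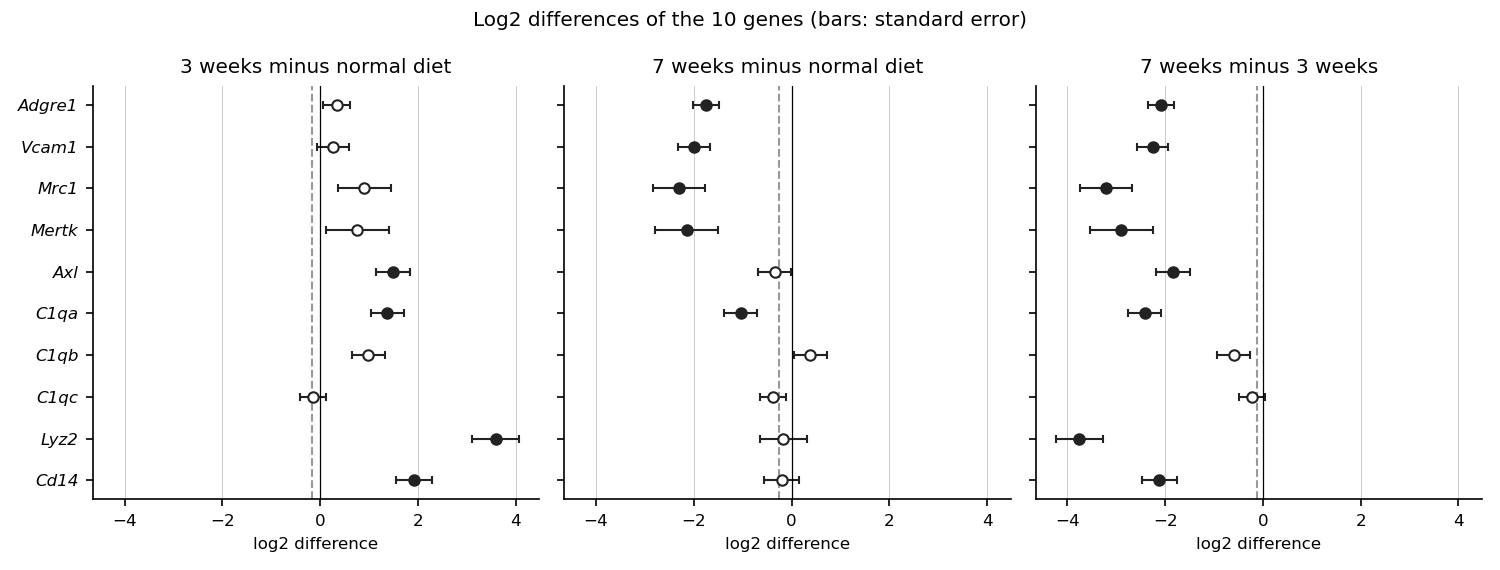
Log2 differences of the 10 genes in the 3 comparisons (x axis), with standard errors as bars, filled circles for an adjusted p under 0.05 and the median of all genes as a dashed line. At 3 weeks the filled circles are Axl, C1qa, Lyz2 and Cd14, at 7 weeks Adgre1, Vcam1, Mrc1, Mertk and C1qa, and between 7 and 3 weeks all genes but C1qb and C1qc lie below 0 with filled circles.

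Adgre1 encodes F4/80, the surface receptor by which mouse macrophages are usually recognised. On the probe that stands for it, its log2 level was 2.09, 1.97 and 2.31 on the normal diet arrays, 2.26, 2.69 and 2.43 after 3 weeks, and 0.67, 0.06 and 0.39 after 7 weeks. The first 2 groups overlapped, and every 7 week array lay below all others. Adgre1 fell 3.36-fold between normal diet and 7 weeks (-1.75 ± 0.27 log2, SE, adjusted p = 0.00379), and the difference at 3 weeks was 0.34 ± 0.27 (adjusted p = 0.435). Its level was 4.25-fold lower at 7 than at 3 weeks (adjusted p = 8.69e-04). The second Adgre1 probe gave differences of 0.89 ± 0.29 at 3 weeks (adjusted p = 0.0788 over all named probes) and -1.21 ± 0.29 at 7 weeks (adjusted p = 0.0152). Against replicate 3 alone, the 7 week difference was -1.93 (adjusted p = 0.0943). Both probes thus had their lowest values at 7 weeks.

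Vcam1 encodes the adhesion molecule with which the macrophage binds the α4β1 integrin of erythroblasts. Its brighter probe read 3.59, 3.14 and 4.25 on normal diet, 4.17, 3.72 and 3.88 after 3 weeks, and 1.51, 1.69 and 1.80 after 7 weeks. As for Adgre1, the 7 week arrays formed a separate low group and the others overlapped. Vcam1 fell 3.98-fold at 7 weeks against normal diet (-1.99 ± 0.32, adjusted p = 0.0043) and was 4.78-fold lower than at 3 weeks (adjusted p = 0.00123). At 3 weeks the difference from normal diet was 0.26 ± 0.32 (adjusted p = 0.62), and -0.33 against replicate 3 alone. The second probe of Vcam1 differed here. It read -1.46, -2.61 and -1.16 on normal diet and 0.70, 0.80 and 0.55 after 3 weeks, a rise of 2.43 ± 0.48 (adjusted p = 0.0194 over all named probes). At 7 weeks it read -3.28, -1.78 and -2.93, was above background on 2 of 3 arrays, and differed from normal diet by -0.92 ± 0.48 (adjusted p = 0.169). The probes of Vcam1 thus both put the 7 week level below the 3 week level, with differences of -2.26 and -3.35, and disagree on which of these groups stands apart from normal diet. Under the mean of both probes the differences were 1.34 at 3 weeks (adjusted p = 0.0529) and -1.46 at 7 weeks (adjusted p = 0.0192). The 7 week difference of the brighter probe was -2.58 against replicate 3 alone (adjusted p = 0.0697).

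**Figure D2:**
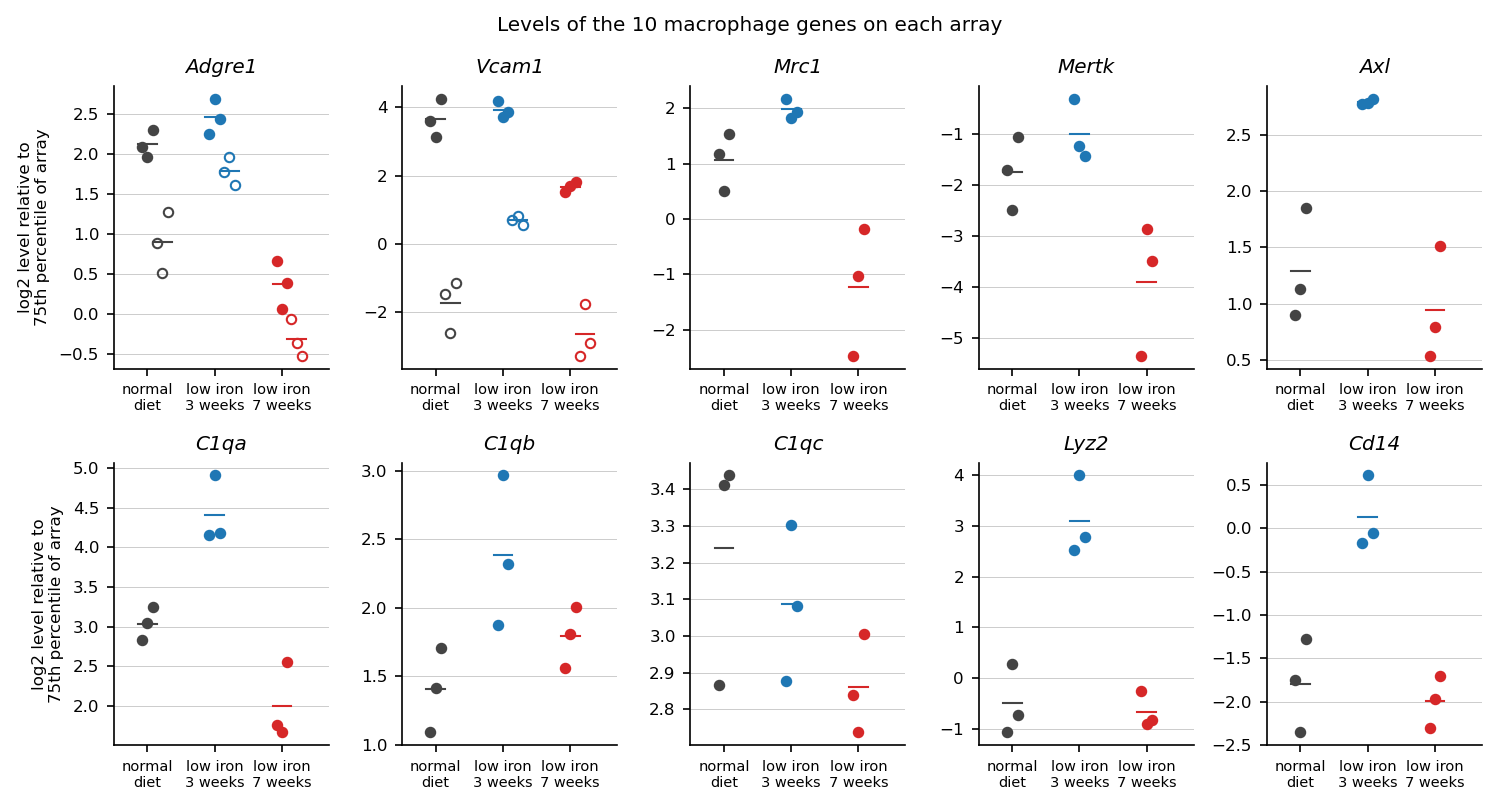
Log2 levels relative to the 75th percentile of the array (y axis) of the 10 genes on each of the 9 arrays by diet group (x axis), with the mean as a line; open circles are the second probes of Adgre1 and Vcam1. Lyz2 and Cd14 are highest on the 3 week arrays, at 2.52 or more and -0.17 or more, while Adgre1, Vcam1 and Mrc1 are lowest at 7 weeks, with means of 0.37, 1.67 and -1.23.

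Partners of VCAM1 on the erythroblast were measured too. Itga4, the α4 chain of its integrin, read 6.35, 6.36 and 6.62 on normal diet, 5.17, 4.84 and 5.48 after 3 weeks and 5.44, 4.73 and 5.55 after 7 weeks. It fell by 1.28 ± 0.31 at 3 weeks (adjusted p = 0.0316) and by 1.20 ± 0.31 at 7 weeks (adjusted p = 0.0203), on a probe whose dim second probe gave 0.51 at 3 weeks (adjusted p = 0.651). Itgb1, the β1 chain, differed by 0.83 ± 0.35 at 3 weeks (adjusted p = 0.148), fell by 1.61 ± 0.35 at 7 weeks (adjusted p = 0.0109), and differed by -2.44 between 7 and 3 weeks (adjusted p = 0.00122). Maea, the erythroblast macrophage protein, fell by 0.75 ± 0.24 at 7 weeks (adjusted p = 0.0424). Icam4, an erythroid ligand of αV integrins on the macrophage, was at 6.90, 7.04 and 7.23 on average in the groups and was not called (adjusted p = 0.725 at 3 weeks and 0.314 at 7 weeks). Of 19 tested island genes outside the 10, 1 rose and 1 fell at 3 weeks, 5 fell at 7 weeks, and 7 were lower at 7 than at 3 weeks. These shares of 10.5%, 26.3% and 36.8% called lay near those of all genes in either direction (11.4%, 29.5% and 37.2%). The last 2 shares were falls only, where 18.7% and 19.6% of all genes were called lower. Those with the largest falls at 7 weeks were Maf, a transcription factor of island macrophages, by 2.18 ± 0.39 (adjusted p = 0.00571), and Slc40a1, the iron exporter ferroportin, by 1.82 ± 0.30 (adjusted p = 0.00441). The median difference of the 19 genes was 0.42 at 3 weeks and -0.21 at 7 weeks.

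Mrc1 encodes the mannose receptor CD206, an endocytic receptor of tissue macrophages. It read 1.18, 0.51 and 1.54 on normal diet, 2.17, 1.83 and 1.94 after 3 weeks and -2.47, -1.03 and -0.19 after 7 weeks. All 3 week arrays lay above, and all 7 week arrays below, the normal diet arrays. The fall at 7 weeks was 4.93-fold (-2.30 ± 0.54, adjusted p = 0.0142), and the difference at 3 weeks, 0.91 ± 0.54, was not called (adjusted p = 0.289). Mrc1 was 9.26-fold lower at 7 than at 3 weeks (adjusted p = 0.00235). Without 7 week replicate 1, the lowest array, the falls were 3.21-fold against normal diet (adjusted p = 0.0122) and 6.02-fold against 3 weeks. The 7 week arrays spread widely, with an SD of 1.15 against 0.52 on normal diet and 0.18 at 3 weeks (n = 3 each). The adjusted p of the fall from normal diet was 0.0552 without normal diet replicate 1, 0.0565 without replicate 3, and 0.138 against replicate 3 alone, where the difference was -2.77.

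Among other C-type lectins and scavenger receptors, 10 genes were tested. At 3 weeks limma called none, with 1 higher and 1 lower at an unadjusted p under 0.05, and at 7 weeks 1 rose and 2 fell. Between 7 and 3 weeks 3 were lower. The shares called of 0%, 30% and 30% stand beside 11.4%, 29.5% and 37.2% of all genes, so at 7 weeks the share was near that of all genes. Cd209f, a relative of DC-SIGN, was on average at 1.40 on normal diet and 1.37 after 3 weeks, but failed the background criterion on all 7 week arrays. It was at least 30.8-fold lower at 7 weeks than on normal diet (adjusted p = 3.93e-05), taking the lowest signal well above background as the level of a dim array. Clec10a, a galactose lectin, rose by 1.69 ± 0.47 at 7 weeks (adjusted p = 0.0264), the opposite direction to Mrc1.

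Mertk and Axl are receptor tyrosine kinases of the TAM family, through which macrophages take up apoptotic cells and, for Mertk, expelled erythroid nuclei. Mertk read -1.71, -2.50 and -1.07 on normal diet, -0.32, -1.25 and -1.44 after 3 weeks and -5.35, -2.86 and -3.49 after 7 weeks, where -5.35 was not well above background. It fell 4.41-fold at 7 weeks (-2.14 ± 0.65, adjusted p = 0.0362) and was 7.47-fold lower than at 3 weeks (-2.90 ± 0.65, adjusted p = 0.00833). Without 7 week replicate 1, the array not well above background, the differences were 2.67-fold (adjusted p = 0.0515) and 4.52-fold (adjusted p = 0.00818). The fall against normal diet was also not called without normal diet replicate 1 or 3 or 3 week replicate 2 or 3 (adjusted p 0.0518 to 0.122). At 3 weeks its groups overlapped (0.76 ± 0.65, adjusted p = 0.467). Against replicate 3 alone the 7 week difference was -2.83 (adjusted p = 0.168).

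Axl read 0.90, 1.13 and 1.85 on normal diet, 2.77, 2.78 and 2.82 after 3 weeks and 0.54, 0.79 and 1.51 after 7 weeks. The 3 week arrays lay close together, with an SD of 0.03 (n = 3), and above all others, while the other groups overlapped. Axl rose 2.83-fold at 3 weeks (1.50 ± 0.35, adjusted p = 0.0282), and at 7 weeks differed from normal diet by -0.35 ± 0.35 (adjusted p = 0.468). It was 3.59-fold lower at 7 than at 3 weeks (adjusted p = 0.00402). The rise at 3 weeks lost its call without normal diet replicate 1 or 2 or any 3 week array (adjusted p 0.0726 to 0.10), and was 0.95 against normal diet replicate 3 alone (adjusted p = 0.532). Mertk and Axl, of one receptor family, were thus called in different comparisons with normal diet. The log2 ratio of Axl to Mertk within an array changed by 0.74 at 3 weeks (exact permutation p = 0.2) and by 1.79 at 7 weeks (exact p = 0.1, the smallest that 3 against 3 can give). In the family of 18 such ratio comparisons the Benjamini-Hochberg values were 0.24 and 0.129.

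Gas6, the ligand of both receptors, read -0.29, -0.45 and -1.37 on normal diet, -1.80, -2.83 and -2.52 after 3 weeks and -2.38, -1.64 and -2.31 after 7 weeks. It fell by 1.68 ± 0.40 at 3 weeks (adjusted p = 0.0313) and by 1.41 ± 0.40 at 7 weeks (adjusted p = 0.0305), so at 3 weeks the ligand was lower where Axl was higher. Pros1, protein S, a further TAM ligand, differed by 2.24 ± 0.82 at 3 weeks (adjusted p = 0.109) and was above background on 1 of 3 arrays at 7 weeks. Tyro3, the remaining TAM receptor, was not called on its brighter probe (0.51 at 3 weeks, adjusted p = 0.304, and 0.68 at 7 weeks, adjusted p = 0.126). Its second probe was called lower at 3 weeks (-1.86, adjusted p = 0.0132 over all named probes) and at 7 weeks (-1.05, adjusted p = 0.0339). That probe passed the filter only through the normal diet arrays, so its calls support nothing. Of 20 tested genes of TAM ligands and efferocytosis, 1 rose and 1 fell at 3 weeks, 3 fell at 7 weeks, and 1 was higher and 8 were lower at 7 than at 3 weeks. The shares called were 10%, 15% and 45%, beside 11.4%, 29.5% and 37.2% of all genes. Cd36, a scavenger receptor, fell by 2.24 ± 0.34 at 7 weeks (adjusted p = 0.00353). Abca1, a cholesterol exporter, was also called lower (adjusted p = 0.00845), but was well above background on 1 of 3 arrays at 7 weeks, so the size of its fall was not measured. Cd36 is also made by erythroid cells.

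C1qa, C1qb and C1qc encode the chains of C1q, the recognition molecule of the classical complement pathway, which tissue macrophages secrete. Their genes are neighbours on chromosome 4. C1qa read 2.83, 3.04 and 3.25 on normal diet, 4.15, 4.91 and 4.18 after 3 weeks and 1.76, 1.67 and 2.56 after 7 weeks. No group overlapped another. C1qa rose 2.60-fold at 3 weeks (1.38 ± 0.34, adjusted p = 0.0343), fell 2.06-fold at 7 weeks (-1.04 ± 0.34, adjusted p = 0.0467) and was 5.35-fold lower at 7 than at 3 weeks (adjusted p = 0.00117). It was the only one of the 10 genes called in all 3 comparisons. Both calls against normal diet lay near the threshold: the rise was not called without any one of the normal diet or 3 week arrays (adjusted p 0.0646 to 0.123), and the fall not without any normal diet array, 3 week replicate 1 or 3, or 7 week replicate 1 or 2 (adjusted p 0.064 to 0.142). Against replicate 3 alone the differences were 1.17 (adjusted p = 0.496) and -1.25 (adjusted p = 0.255).

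C1qb read 1.09, 1.41 and 1.71 on normal diet, 1.88, 2.97 and 2.32 after 3 weeks and 1.56, 1.81 and 2.01 after 7 weeks. The 3 week arrays lay above all normal diet arrays, but the difference of 0.98 ± 0.34 was not called (adjusted p = 0.0882), and the 7 week arrays overlapped both other groups (0.39 ± 0.34 against normal diet, adjusted p = 0.402). C1qc read 2.87, 3.41 and 3.44 on normal diet, 2.88, 3.30 and 3.08 after 3 weeks and 2.84, 2.74 and 3.01 after 7 weeks. All C1qc groups overlapped, with differences of -0.15 ± 0.27 at 3 weeks (adjusted p = 0.74), -0.38 ± 0.27 at 7 weeks (adjusted p = 0.304) and -0.23 ± 0.27 between 7 and 3 weeks (adjusted p = 0.533). The C1qc probe was spotted 10 times on each array, and the SD over its spots was 0.0392 to 0.134, below the SD over normal diet arrays of 0.32.

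Because the chains form one complex, their ratios were compared within arrays, where scaling between arrays cancels. The log2 ratio of C1qa to C1qc changed by 1.53 at 3 weeks and by -0.66 at 7 weeks, without overlap of the groups in either case. C1qb to C1qc was higher by 1.14 and by 0.77, again without overlap. C1qa to C1qb changed by 0.39 at 3 weeks and by -1.43 at 7 weeks. Each of these had an exact permutation p of 0.1, the smallest possible with 3 arrays a group, so none could pass the threshold, and 0.129 after Benjamini-Hochberg adjustment over the 18 ratio comparisons.

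**Figure D3:**
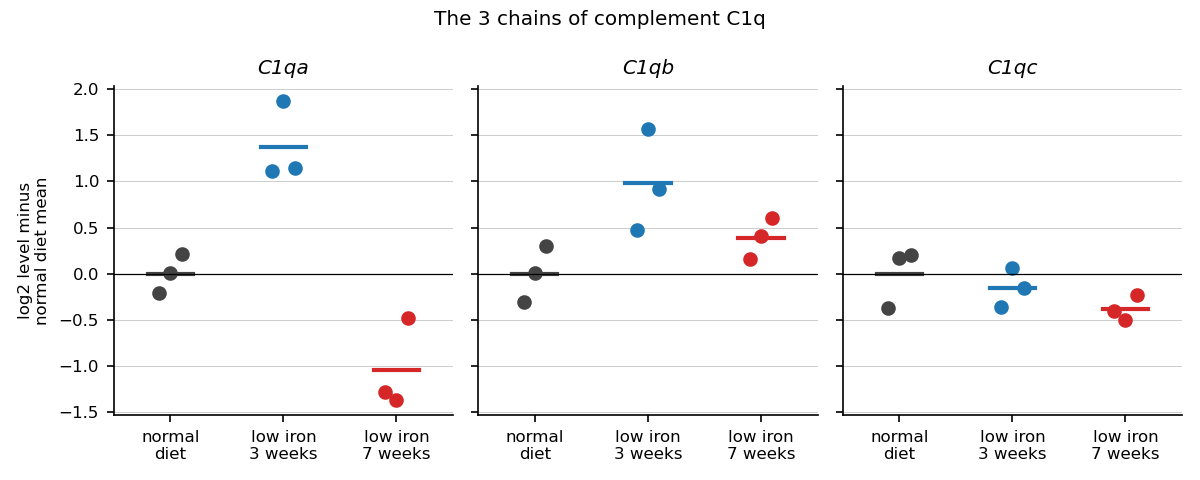
Log2 levels of C1qa, C1qb and C1qc on each array minus the normal diet mean of the gene (y axis) by diet group (x axis), with group means as lines. C1qa lies at 1.38 on average at 3 weeks and at -1.04 at 7 weeks, C1qb at 0.98 and 0.39, and C1qc at -0.15 and -0.38.

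Genes of the C1r and C1s proteases, which act with C1q, were dim. C1ra and C1s1 were not called at 3 weeks (-1.06 ± 0.85, adjusted p = 0.439, and 0.25 ± 0.68, adjusted p = 0.841), and at 7 weeks they were above background on 0 and 1 of 3 arrays. C1rb was well above background on all 9 arrays and differed by 0.42 at 3 weeks (adjusted p = 0.537) and by 1.09 at 7 weeks (adjusted p = 0.0793). C1s2 was not well above background at 7 weeks, where it was at least 1.25-fold lower than on normal diet (adjusted p = 0.039). Of 22 tested complement and C1q binding genes, 2 were called higher at 3 weeks, and 4 rose and 4 fell at 7 weeks. That is 9.09% and 36.4% beside 11.4% and 29.5% of all genes, of which 3.52% were called higher at 3 weeks. One of the 3 week calls, Itgax, passed the background filter through the 3 week arrays alone, so its call supports nothing. Serping1, which encodes the C1 inhibitor, rose by 2.79 ± 0.45 at 7 weeks (adjusted p = 0.00441), and Vsig4, a macrophage receptor for complement C3 fragments, was at least 3.86-fold lower there (adjusted p = 0.00214). The median difference of these 22 genes was 0.15 at 3 weeks and -0.31 at 7 weeks.

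Lyz2 encodes lysozyme M, a granule enzyme of macrophages, monocytes and neutrophils. It read -1.06, 0.29 and -0.71 on normal diet, 2.52, 3.99 and 2.78 after 3 weeks and -0.26, -0.89 and -0.83 after 7 weeks. The lowest 3 week array thus lay above the highest of all other arrays, and the other groups overlapped. Lyz2 rose 12.1-fold at 3 weeks (3.59 ± 0.48, adjusted p = 0.00887), a difference above that of 99.8% of genes tested. At 7 weeks it differed from normal diet by -0.16 ± 0.48 (adjusted p = 0.811) and was 13.5-fold lower than at 3 weeks (adjusted p = 8.09e-04). The rise kept its call without any single array, and against replicate 3 alone it was 3.81 (adjusted p = 0.224). Lyz1, the neighbouring lysozyme P gene with a similar sequence, differed by 0.87 ± 0.47 at 3 weeks (adjusted p = 0.247) and by -1.86 ± 0.47 between 7 and 3 weeks (adjusted p = 0.0141). Whether signal of one lysozyme reaches the probe of the other was not tested.

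Cd14 encodes the co-receptor that hands lipopolysaccharide to Toll-like receptor 4. It read -1.75, -2.35 and -1.28 on normal diet, -0.17, 0.61 and -0.06 after 3 weeks and -2.30, -1.97 and -1.70 after 7 weeks. As for Lyz2, the 3 week arrays lay above all others and the other groups overlapped. Cd14 rose 3.79-fold at 3 weeks (1.92 ± 0.36, adjusted p = 0.0162), differed by -0.20 ± 0.36 at 7 weeks (adjusted p = 0.70) and was 4.34-fold lower at 7 than at 3 weeks (adjusted p = 0.00257). The rise was not called without normal diet replicate 1 or 2 or 3 week replicate 2 (adjusted p 0.0542 to 0.0666), and was 1.40 against normal diet replicate 3 alone (adjusted p = 0.398). Tlr4 differed by 0.95 ± 0.37 at 3 weeks (adjusted p = 0.13). It was not well above background at 7 weeks, where it was at least 1.49-fold lower than on normal diet (adjusted p = 0.00315). Ly96, which encodes the MD-2 chain bound to the receptor, read 3.21, 0.36 and -0.58 at 7 weeks and was not called (1.96 ± 0.82, adjusted p = 0.0981). Of 15 tested genes of this pathway, 1 rose at 3 weeks, and 1 rose and 1 fell at 7 weeks. Between 7 and 3 weeks 2 were higher and 5 lower. The shares called were 6.67%, 13.3% and 46.7%, beside 11.4%, 29.5% and 37.2% of all genes. The gene that rose at 3 weeks was Lbp, which encodes the lipopolysaccharide binding protein (2.22 ± 0.56, adjusted p = 0.0363).

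The 10 genes were also set against each other. Within an array, the log2 ratio of Lyz2 to Adgre1 was higher by 3.25 at 3 weeks and by 1.58 at 7 weeks, and that of Cd14 to Adgre1 by 1.58 and 1.55, without overlap with normal diet (exact permutation p = 0.1 each). Between 7 and 3 weeks the ratio of Cd14 to Adgre1 differed by -0.03 (exact p = 0.9). Over the 9 arrays, after each gene was centred on its mean, the closest pairs among the 10 were Axl with Cd14, at a root mean square difference of 0.351, and Adgre1 with Vcam1, at 0.352. Mrc1 was closest to Mertk, at 0.445.

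Among all genes tested, the 3 with the smallest such difference were, for Adgre1, Pcid2 (0.196), Cnbp (0.207) and Vmn2r58 (0.214), and for Vcam1, Dr1 (0.146), Tra2b (0.197) and Hmmr (0.215). For Lyz2 they were Mmp9 (0.27), Ets1 (0.282) and Plaur (0.379), and for C1qa Rnf5 (0.24), Nlrc4 (0.254) and Itm2a (0.274). Rnf5 was also the closest to Axl (0.257). For C1qb they were Jak3 (0.189), Aqp7 (0.221) and Apoe (0.226), and for C1qc Zic1 (0.165), Sema6b (0.173) and Usp29 (0.174). The closest to Mrc1 was Dnajc21 (0.285), to Mertk Rbm4b (0.407) and to Cd14 Btbd7 (0.254). None of the 10 genes had another of the 10 among its 3 closest.

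Further macrophage genes were taken from a list. Of 23 tested macrophage and monocyte markers outside the 10, 2 were called higher at 3 weeks, 3 fell at 7 weeks, and 1 was higher and 8 were lower at 7 than at 3 weeks. These are 8.7%, 13% and 39.1% of the list, beside 11.4%, 29.5% and 37.2% of all genes. In the single direction of the list's calls, 3.52% of all genes were higher at 3 weeks and 18.7% lower at 7 weeks. At an unadjusted p under 0.05, 8 were higher and 1 lower at 3 weeks, and 5 were lower at 7 weeks. Fcgr3, an Fc receptor, rose at 3 weeks (2.80 ± 0.41, adjusted p = 0.00939). The other gene, Spi1, which encodes PU.1, was well above background on the 3 week arrays alone and at least 5.64-fold higher there than on normal diet; it passed the filter only through that group, so its calls at 3 weeks and between 7 and 3 weeks support nothing. The list had a mean level between -0.27 and 0.24 on normal diet, between 0.33 and 0.77 after 3 weeks and between -0.40 and -0.20 after 7 weeks, with 22, 23 and 19 of its 23 genes well above background on all arrays of the group. Its median difference was 0.18 at 3 weeks and -0.14 at 7 weeks. Csf1r, the receptor for the growth factor of macrophages, differed by -0.27 ± 0.38 in both comparisons with normal diet on the brightest of its 3 probes. The next brightest differed by -0.17 ± 0.27 at 3 weeks (adjusted p = 0.717 over all named probes). Only the dimmest probe rose there, by 2.07 ± 0.48 (adjusted p = 0.0302). Siglec1, the sialoadhesin of island macrophages, differed by 0.89 ± 0.38 at 3 weeks on its brighter probe (adjusted p = 0.152). Its other probe was called lower there (adjusted p = 0.0453), but passed the filter only through the normal diet arrays, so that call supports nothing. Spic, a transcription factor of iron-handling macrophages, differed by 1.07 ± 0.31 at 3 weeks (adjusted p = 0.0547) and by -1.21 ± 0.31 between 7 and 3 weeks, a fall (adjusted p = 0.0148). Cd68 and Cd163 are not analysed here.

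Markers of other cell types were counted in the same way. Of 18 neutrophil lineage markers, 2 rose at 3 weeks, Mmp9 by 3.52 ± 0.52 (adjusted p = 0.00939) and Ngp by 2.98 ± 0.50 (adjusted p = 0.0134), and the list lay between 2.17 and 3.82 on normal diet, between 3.21 and 4.30 after 3 weeks and between 1.99 and 2.96 after 7 weeks. The share of this list called at 3 weeks was 11.1%, all higher, beside 11.4% of all genes called in either direction and 3.52% called higher. Its median difference at 3 weeks was 0.90, beside -0.17 over all genes and 0.95 for the 10 genes. At an unadjusted p under 0.05, 6 were higher and 1 lower at 3 weeks. Csf3r, S100a8 and S100a9, named after their values were seen, differed by -0.75, -1.01 and -0.68 at 3 weeks, with no call (adjusted p = 0.0931, 0.178 and 0.317). The highest normal diet array of that list was replicate 2, which was also the highest for Lyz2. Of 11 dendritic cell markers 3 were called higher at 3 weeks, Itgax again through the 3 week arrays alone, with the class II gene H2-Aa at 3.38 ± 0.42 (adjusted p = 0.00794), and of 10 B lineage markers 2 rose. These are 27.3% and 20% of the lists, beside 11.4% of all genes called in either direction and 3.52% called higher. At 3 weeks limma called no marker of T and NK cells, megakaryocytes, mast cells and basophils, or stroma, where 1, 2, 0 and 0 were higher at an unadjusted p under 0.05. At 7 weeks 1 neutrophil marker rose, Elane by 2.60 ± 0.42 (adjusted p = 0.0043), and 1 fell, Chil3 by 1.31 ± 0.40 (adjusted p = 0.0389). That is 11.1% of the list, beside 29.5% of all genes. Of 8 mast cell, basophil and eosinophil markers 2 were called lower (25%, median -2.97), 1 through the normal diet arrays alone, which supports nothing. Only 2 of these 8 were well above background on every 7 week array. Dendritic cell markers had 2 higher and 1 lower (27.3%, median 0.65), B lineage 1 and 1 (20%, 0.12). Stroma had 2 higher (22.2%, 0.89), T and NK cells 1 higher (9.09%, 1.17) and megakaryocytes 1 lower (10%, -0.41). Between 7 and 3 weeks, 2 neutrophil markers were higher and 8 lower, 55.6% of the list beside 37.2% of all genes. Their median difference there was -1.62, beside -0.80 for the macrophage list and -0.13 over all genes. All 18 neutrophil markers were well above background on every normal diet and 3 week array, and 15 of them on every 7 week array. Between 7 and 3 weeks, 2 dendritic cell markers were higher and 4 lower (54.5%), and 1 B lineage marker was higher and 3 lower (40%). Of T and NK cell markers 1 was higher and 2 were lower (27.3%). In the dendritic and T and NK lists, 1 lower call each came through the 3 week arrays alone and supports nothing. For megakaryocyte, mast cell and stroma markers the shares called were 20%, 12.5% and 22.2%. The part of such cells in the differences of the 10 genes was not tested.

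**Figure D4:**
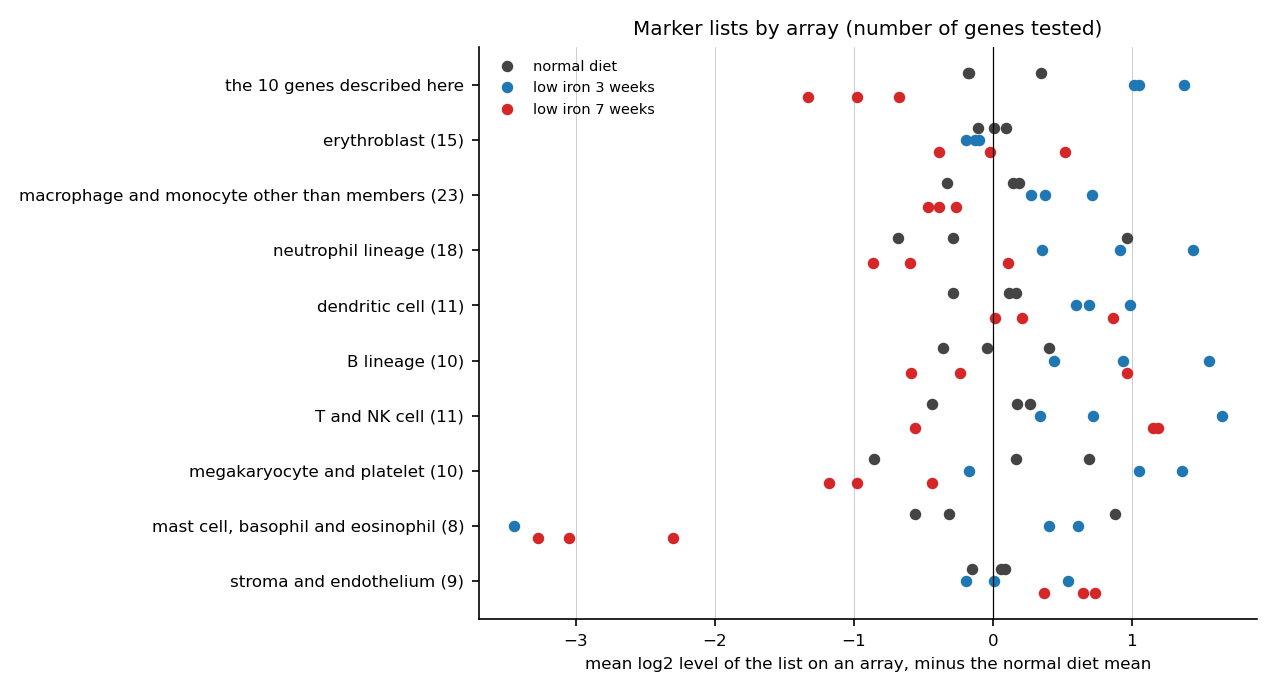
Mean log2 level of the 10 genes and of 9 marker lists on each array minus the normal diet mean of the list (x axis), with the number of tested genes in brackets. The 10 genes lie higher on every 3 week array, and lower on every 7 week array, than on any normal diet array; the macrophage, dendritic cell, B lineage and T and NK cell lists are also above every normal diet array at 3 weeks, and the neutrophil list overlaps.

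Unscaled values moved the 7 week differences more than the 3 week ones. Without scaling, the 3 week differences were 3.75 for Lyz2, 2.08 for Cd14, 1.66 for Axl and 1.54 for C1qa, of which C1qa was not called (adjusted p = 0.0541). At 7 weeks the unscaled differences from normal diet were -2.55 for Adgre1, -2.80 for Vcam1, -3.11 for Mrc1, -2.95 for Mertk and -1.85 for C1qa, beside a median of -1.07 over all genes. Mertk and C1qa lost their 7 week calls under normexp, under quantile normalization and with erythroblast markers as the reference, under which Axl and C1qa also lost their 3 week calls. C1qb changed sign without scaling, from 0.39 to -0.42, and C1qc and Axl were lower with a call (-1.18, adjusted p = 0.0126, and -1.15, adjusted p = 0.044). Between 7 and 3 weeks, the 8 genes called as lower were called under each of the 5 scalings drawn.

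**Figure D5:**
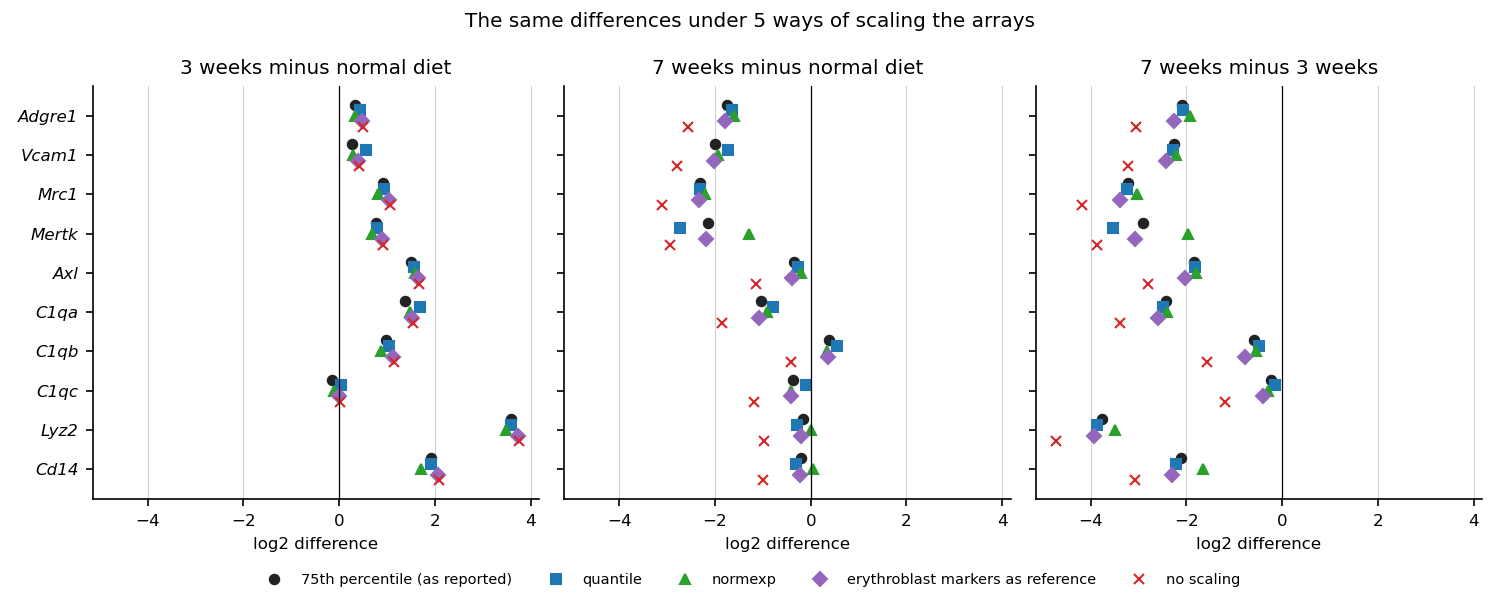
Log2 differences of the 10 genes (x axis) in the 3 comparisons under 5 ways of scaling the arrays, one symbol each. The 3 week differences of Lyz2 run from 3.49 to 3.75, and without scaling all 7 week differences from normal diet lie lower than under the others, with C1qb at -0.42.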

How the data were processed

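Subset II erythroblast RNA was measured on 9 Agilent arrays of 62976 spots, 3 a group. The authors deposited scanner files, whose processed signal is an intensity already corrected for background per the file headers, and a table of log2 values, which the deposited series matrix holds without a stated scaling and which served as an alternative. Spots flagged as outliers and control spots were left out, and spots of a probe were averaged. Processed signals were put on the log2 scale and each array's 75th percentile was subtracted. Probes were named through their RefSeq accession (26413 of the 33064 with one; table of assembly GRCm38.p6, used for names and promoter windows only). A probe was kept if the scanner software called it well above background throughout at least 1 group, and the probe with the highest mean stood for a gene, which left 14506 genes. They were fitted together with limma 3.58.1 in R 4.3.3 on the 3 groups, with Benjamini-Hochberg adjustment; the script was tested on simulated data. The number of arrays limits the precision.

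The 10 genes and all lists were chosen with earlier results of these data known. Beyond the 10 genes, the text names their direct partners, at most 2 rises and 2 falls a list and comparison, and the 3 genes nearest to each over the arrays. Alternatives were normexp (on the median signal, as the files used here hold no mean signal), quantile normalization, no filter, the mean over probes, the deposited table, fits of only the groups compared, the replicate number as a block, 1 control array, and each array left out. Unscaled values and scaling on erythroblast markers were added after seeing the data. Same-numbered arrays deviated together in no consistent way (r of deviations -0.17 to 0.29), so the numbers do not pair the samples.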

Additional observations from a re-analysis of the deposited data

Results flagged for a closer look

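For 8 of the 10 genes the effect against the shared normal diet arrays differed between 3 and 7 weeks, by limma's test of the difference itself (adjusted p 8.09e-04 to 0.00833). The 7 week level minus the 3 week level was -3.76 (log2) for Lyz2, -3.21 for Mrc1, -2.90 for Mertk, -2.42 for C1qa, -2.26 for Vcam1, -2.12 for Cd14, -2.09 for Adgre1 and -1.85 for Axl. For Lyz2, Cd14 and Axl this difference lay mainly between the 3 week arrays and both other groups, and for Adgre1, Mertk and the brighter probe of Vcam1 mainly between the 7 week arrays and both others.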

How the results depend on the processing

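Of the 10 genes, 4 were called at 3 weeks, 5 at 7 weeks and 8 between 7 and 3 weeks. At 3 weeks the count was 0 against normal diet replicate 3 alone and 2 with erythroblast markers as the reference, and leaving out 1 array gave 1 to 4. At 7 weeks it was 3 under normexp, under quantile normalization, with only the 2 groups compared and with erythroblast markers as the reference, and 0 against replicate 3 alone, and leaving out 1 array gave 2 to 5. Between 7 and 3 weeks it was 8 to 10 in all 18 alternatives. With the replicate number as a block, the counts were 3, 3 and 8, and the calls lost were C1qa at 3 weeks (adjusted p = 0.0513) and Mertk and C1qa at 7 weeks (0.0622 and 0.0606).

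Signs that turned were all of differences with no call. Against replicate 3 alone these were Vcam1 at 3 weeks (-0.33) and Lyz2 at 7 weeks (0.053). Without 1 array, Lyz2 at 7 weeks ran from -0.45 to 0.23 and Cd14 from -0.48 to 0.061. C1qc at 3 weeks turned under quantile normalization (0.041) and without scaling (0.0068), C1qb at 7 weeks without scaling (-0.42), and Cd14 at 7 weeks under normexp (0.058). The causes were not tested.

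Over all genes, the 3 week count was 1653, and 4416 with only the 2 groups compared, 966 without scaling, 727 with erythroblast markers as the reference, 0 with 1 control and 198 to 3503 with 1 array left out. The 7 week count was 4278, and 6939 without the filter, 7100 without scaling, 2819 with only the 2 groups compared, 1 with 1 control and 1739 to 5210 with 1 array left out. Between 7 and 3 weeks it was 5391, and 3544 to 6489 with 1 array left out. At 7 weeks 1559 were higher and 2719 lower, against 4178 and 2761 without the filter and 454 and 6646 without scaling. The dim 7 week arrays limit Mertk most, which was above background on 2 of 3 of them.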
